A study of Homo sapiens with 9 samples.

Results

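The genes described here are 34 genes of the integrated stress response and of amino-acid supply, taken by symbol from the 58735 named rows of the count table. Each symbol matched 1 row. They were ordered by role into 3 eIF2 kinases, 7 transcription factors and regulators, 2 subunits of the eIF2 phosphatase, 3 secreted, surface or cytosolic effectors, 5 enzymes of serine, glycine and one-carbon metabolism, 6 other amino-acid enzymes, 5 amino-acid transporters and 3 tRNA synthetases. They were measured by RNA-seq of MDA-MB-231, a human breast cancer cell line of the triple-negative, mesenchymal type, held in hypoxia for 6 h per the series title. There were 6 libraries of genotype sgL1 and 3 of genotype sgCtrl. The series concerns UFMylation, the attachment of the small ubiquitin-like protein UFM1 to other proteins, and its design text speaks of cells lacking UFL1 or UFM1. sgL1 is read here as a guide against UFL1, the ligase of this pathway, and sgCtrl as a control guide, although the labels spell out neither.

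The labels do not say whether the sgL1 cells were a clone or a pool, whether the libraries came from separate cultures, or what separates the sgL1 libraries numbered 1 to 3 from those numbered 4 to 6. The p-values therefore measure the spread between these libraries, which may be technical. The title speaks of knockdown and the design text of knockout. All 9 libraries were hypoxic, so no value below is a response to oxygen. UFL1 itself stood at 15.2, 12.9 and 12.9 CPM (counts scaled to library size) in sgL1 1-3 and 22.9, 20.05 and 21.2 CPM in sgL1 4-6, against 27.4, 25.4 and 25.4 CPM in sgCtrl. Over sgL1 as a whole its log2 fold change against sgCtrl was -0.57 (SE 0.195; adjusted p = 0.126 by edgeR), which did not pass the test. By set it passed, at -0.93 (SE 0.094; adjusted p = 4.27e-10 by edgeR) in sgL1 1-3 and -0.28 (SE 0.089; adjusted p = 0.0302 by edgeR) in sgL1 4-6. The difference between both sets was -0.65 (SE 0.10; adjusted p = 5.57e-05 by edgeR). The levels of the members are therefore shown by set throughout. UFM1 had a log2 fold change of 0.17 (SE 0.062; adjusted p = 0.0862 by edgeR) over sgL1, and in sgL1 4-6 it passed as higher, at 0.22.

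The integrated stress response starts when one of a small family of kinases phosphorylates the alpha subunit of the initiation factor eIF2. General translation then slows, while the mRNA of the transcription factor ATF4, held back by upstream open reading frames, is translated better. ATF4 binds DNA with C/EBP partners at C/EBP-ATF response elements and raises genes of amino-acid synthesis, transport and tRNA charging, and the phosphatase subunit PPP1R15A closes the loop. Much of ATF4's control is translational, which mRNA levels do not report.

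A C/EBP-ATF response element was searched in the RefSeq promoter windows (GRCh38.p14, 250 bases before to 50 bases after the start), as TGATGNAA on both strands. Windows were found for 29 of the 34 genes, and 6 of them (20.7%) held the motif, against 1270 of all 35116 windows (3.62%). The 6 sites are shown because ATF4 and its C/EBP partners are known to bind this element. Of these 6 genes, only CHAC1 was called as higher in sgL1 against sgCtrl, and ASNS only in sgL1 1-3. The windows of the other genes that rose in sgL1 (ATF4, CEBPB, CEBPG, VLDLR, SLC38A2 and SLC1A5) held no motif. Each is written in the direction of the motif, with the motif in capitals. They lie at chr1:204412031-204412050 (PPP1R15B, a gene on the minus strand), chr15:40953256-40953275 (CHAC1, plus), chr7:97872463-97872482 (ASNS, minus), chr11:62881730-62881748 (SLC3A2, plus), chr13:29595668-29595687 (SLC7A1, minus) and chr16:70289680-70289699 (AARS, minus). The motif runs with the gene in PPP1R15B, ASNS and SLC7A1 and against it in CHAC1, SLC3A2 and AARS.
PPP1R15B: cccggcTGATGCAAcctcac
CHAC1: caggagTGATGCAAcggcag
ASNS: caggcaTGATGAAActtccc
SLC3A2: ggagcTGATGTAAggagtc
SLC7A1: cactgcTGATGAAAcctggc
AARS: cttggcTGATGCAActgcga
A match describes letters in a window and no binding was measured. The 250 bases before the start of CHAC1 (chr15:40953221-40953470, plus strand) and ASNS (chr7:97872409-97872658, minus strand) are printed, 5′ to 3′ along the gene, because both genes are textbook ATF4 targets and had the highest fold changes among the genes with a motif. In CHAC1 the capitals are the motif read on the opposite strand, and the first base of its site lies 209 bases before the start. In ASNS the motif starts 68 bases before the start.
CHAC1: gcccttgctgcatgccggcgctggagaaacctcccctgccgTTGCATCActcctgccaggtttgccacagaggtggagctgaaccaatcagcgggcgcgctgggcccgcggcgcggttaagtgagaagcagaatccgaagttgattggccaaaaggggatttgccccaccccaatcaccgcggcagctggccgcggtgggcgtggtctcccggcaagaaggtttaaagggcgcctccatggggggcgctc
ASNS: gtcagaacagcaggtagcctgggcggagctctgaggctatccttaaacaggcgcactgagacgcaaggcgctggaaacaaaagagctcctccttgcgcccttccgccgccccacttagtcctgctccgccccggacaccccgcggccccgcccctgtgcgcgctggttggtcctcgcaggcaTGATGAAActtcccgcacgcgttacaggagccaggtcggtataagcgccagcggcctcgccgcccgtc

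Named genes held 15420073 to 17038409 counts per library, so that 3 counts, the upper limit that a count of 0 allows, correspond to 0.176 to 0.195 CPM; this covers counting error only. Of the 4 markers fixed for MDA-MB-231, VIM, CD44 and AXL were above 1 CPM in every library, whereas SPARC was at or under 0.973 CPM. The leukocyte markers summed to 1.45 to 2.66 CPM in sgL1 and 1.28 to 2.26 CPM in sgCtrl. The fibroblast markers summed to 15.8 to 20.5 CPM in sgL1, against 11.4 to 14.4 CPM in sgCtrl, and the luminal ones to 168 to 196 CPM in sgL1, against 168 to 180.3 CPM in sgCtrl. Single markers moved as well: in sgL1 the adhesion receptor CD44 rose by 0.34 (SE 0.034; adjusted p = 2.71e-08 by edgeR) on the log2 scale, FOXA1, a luminal factor, by 0.46 (SE 0.085; adjusted p = 3.55e-04 by edgeR) and PDGFRB, a fibroblast receptor, by 0.67 (SE 0.13; adjusted p = 8.37e-04 by edgeR). The receptor kinase AXL fell, with a log2 fold change of -0.25 (SE 0.033; adjusted p = 3.12e-06 by edgeR). The other luminal markers tested, PGR (-0.13), ERBB2 (-0.025), GATA3 (0.013) and KRT19 (0.025), did not pass. Neither did COL1A1 (0.31) of the fibroblast list and VIM (-0.094). ESR1, COL3A1, DCN and LUM were not tested. The luminal sums overlapped between sgL1 and sgCtrl, so a shift of that list as a whole is not shown. The fibroblast sum was higher in every sgL1 library than in every sgCtrl library. Of that list only 2 markers were tested, COL1A1 and PDGFRB, and only PDGFRB passed. The part of these markers in any change below was not tested. In bulk RNA, a change in the share of cells and a change in RNA per cell cannot be told apart.

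In sgL1, ATF4, its C/EBP partners CEBPB and CEBPG, the glutathione-degrading enzyme CHAC1, the lipoprotein receptor VLDLR and the amino-acid transporters SLC38A2 and SLC1A5 rose relative to sgCtrl. The kinase GCN2 (EIF2AK4) fell. The genes of serine and glycine synthesis, the tRNA synthetases, the eIF2 phosphatase subunits, DDIT3 and TRIB3 did not pass the test. The steps were small, with the largest of the 8 calls at 0.64 on the log2 scale. By count, 7 rose and 1 fell of the 32 genes tested (21.9% and 3.13%), and 24 did not pass, with adjusted p under 0.05 in edgeR's quasi-likelihood test over 15242 genes. Over all genes tested, 9.49% were called, 5.52% higher and 3.98% lower. The median log2 fold change was 0.016 over the tested members and 0.0023 over all genes. NUPR1 and CBS did not pass the filter on low counts. Where libraries are said below to overlap or not, this describes single genes. The share of all genes without overlap is not given here.

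**Figure D1:**
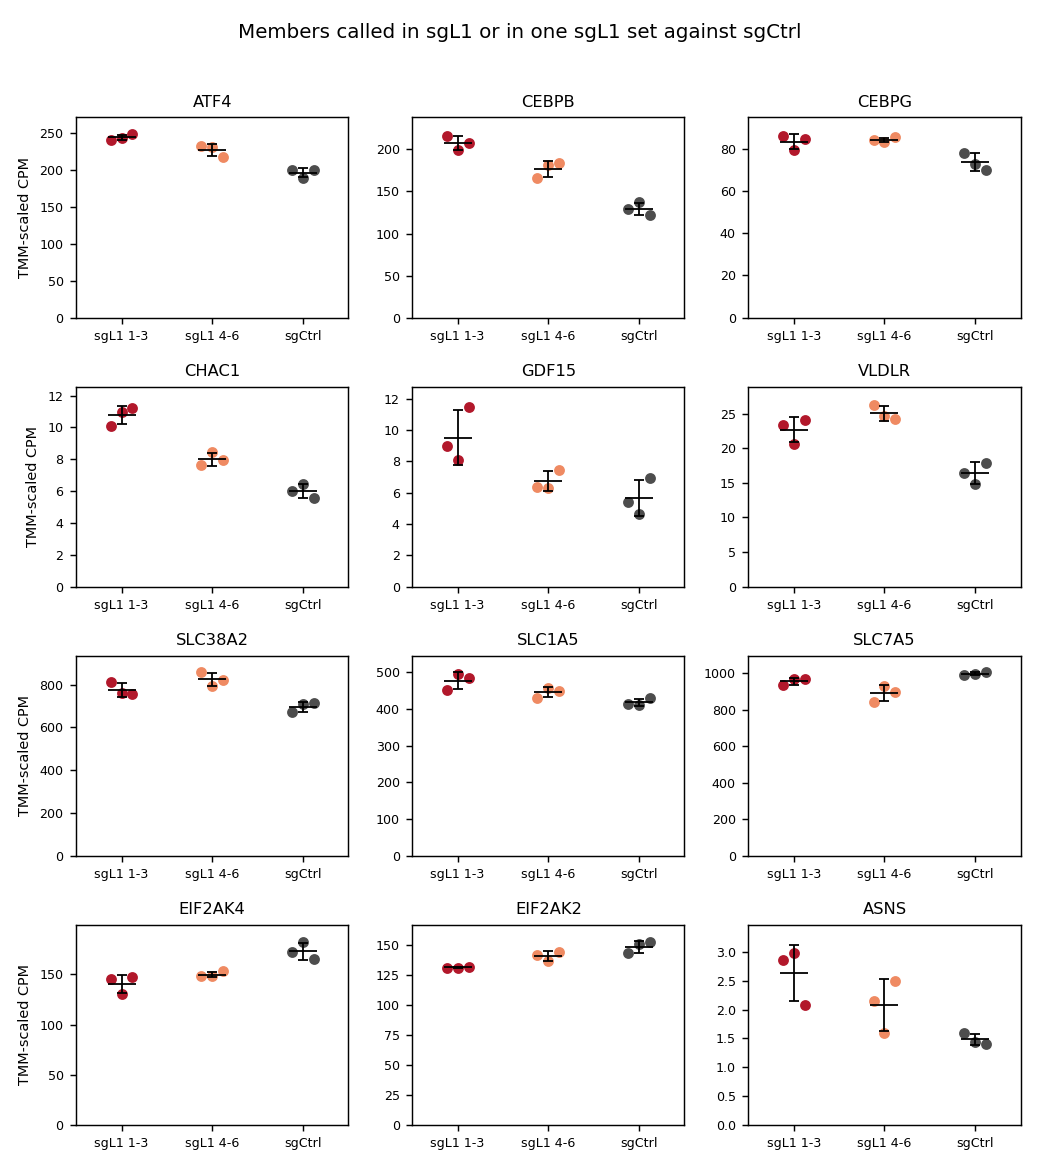
Level in TMM-scaled CPM (vertical axes, from 0) of 12 members that passed the test in sgL1 or in one sgL1 set; points are the 3 libraries of sgL1 1-3, sgL1 4-6 and sgCtrl, and black marks the mean and SD. In ATF4, CEBPB, CEBPG, CHAC1, VLDLR, SLC38A2 and SLC1A5 every sgL1 point lies above every sgCtrl point, and in EIF2AK4 and SLC7A5 every sgL1 point lies below. The genes were picked by the test on these same values, so this separation is no further support.

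Among the kinases that phosphorylate eIF2, EIF2AK4 encodes GCN2, the sensor of uncharged tRNA (ENSG00000128829, chromosome 15, 39934146 to 40035591, plus strand, GRCh38). Its level was 145, 130.4 and 147 CPM in sgL1 1-3 and 148, 148 and 153 CPM in sgL1 4-6, against 172, 182 and 165 CPM in sgCtrl. All 6 sgL1 libraries lay below all 3 sgCtrl libraries, with sgL1 2 the lowest. The log2 fold change was -0.25 (SE 0.048; adjusted p = 5.15e-04 by edgeR), and it was -0.30 (SE 0.046; adjusted p = 6.02e-06 by edgeR) in sgL1 1-3 and -0.21 (SE 0.046; adjusted p = 0.00127 by edgeR) in sgL1 4-6. The call in sgL1 4-6 was lost with limma on log2(FPKM + 1) (adjusted p = 0.0541).

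EIF2AK2, the double-stranded RNA sensor PKR, had 131, 131 and 132 CPM in sgL1 1-3 and 142, 136 and 144 CPM in sgL1 4-6, against 143, 151 and 152 CPM in sgCtrl. The sgL1 1-3 libraries lay below every other library, and sgL1 6 overlapped sgCtrl. Over sgL1 as a whole the log2 fold change was -0.13 (SE 0.045; adjusted p = 0.0781 by edgeR), and only for sgL1 1-3 did it pass the test, at -0.18 (SE 0.043; adjusted p = 0.00272 by edgeR). The difference between both sets was -0.10 (SE 0.043; adjusted p = 0.160 by edgeR), so the sets are not shown to differ. Without sgL1 4 or sgL1 6 the value over sgL1 passed (edgeR adjusted p = 0.0286 and 0.0425). EIF2AK1, the heme-regulated kinase HRI, averaged 112 ± 6.73 CPM in sgL1 1-3 and 112 ± 3.34 CPM in sgL1 4-6, against 118 ± 4.45 CPM in sgCtrl (here and below, mean ± SD of n = 3 libraries per set). The log2 fold changes were -0.066 in sgL1 1-3 and -0.065 in sgL1 4-6, and neither passed. EIF2AK3, the kinase PERK, is not a member and is counted in the further lists below. Its log2 fold change was positive, at 0.25 (SE 0.095; adjusted p = 0.108 by edgeR) over sgL1. In sgL1 1-3 it was 0.26 (SE 0.11; adjusted p = 0.0993 by edgeR), and neither value passed.

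ATF4 (ENSG00000128272, chromosome 22, 39519695 to 39522685, plus strand) had 241, 243 and 248 CPM in sgL1 1-3 and 232, 232 and 217 CPM in sgL1 4-6, against 200.1, 189 and 199.6 CPM in sgCtrl. Every sgL1 library lay above every sgCtrl library, and the 4-6 set lay between 1-3 and sgCtrl. This amounted to a log2 fold change of 0.26 (SE 0.044; adjusted p = 1.11e-04 by edgeR). In sgL1 1-3 it was 0.31 (SE 0.04; adjusted p = 9.48e-08 by edgeR) and in sgL1 4-6 it was 0.21 (SE 0.04; adjusted p = 1.61e-04 by edgeR), and both share the sgCtrl libraries. The sets themselves differed by 0.10 (SE 0.04; adjusted p = 0.112 by edgeR), which did not pass.

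CEBPB, a C/EBP factor that pairs with ATF4 and also acts in inflammatory gene control (ENSG00000172216, chromosome 20, 50190734 to 50192689, plus strand), had 216, 199.9 and 207 CPM in sgL1 1-3 and 166, 181 and 183 CPM in sgL1 4-6, against 129, 137 and 122 CPM in sgCtrl. The 3 sets did not overlap, with sgL1 1-3 highest and sgCtrl lowest. Its log2 fold change was 0.57 (SE 0.075; adjusted p = 1.55e-04 by edgeR). In sgL1 1-3 it was 0.68 and in sgL1 4-6 0.45 (edgeR adjusted p = 1.23e-14 and 1.26e-09). Of its exonic bases, 11.8% lie over the antisense gene CEBPB-AS1, and the strand setting of the counting is not given in the sources used here.

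CEBPG, another partner of ATF4, had 85.9, 79.2 and 84.7 CPM in sgL1 1-3 and 83.9, 83.1 and 85.2 CPM in sgL1 4-6, against 78.1, 72.6 and 69.7 CPM in sgCtrl. The lowest sgL1 library stood just above the highest sgCtrl library. Its log2 fold change was 0.19 (SE 0.05; adjusted p = 0.0141 by edgeR) and was nearly the same in both sets, at 0.18 and 0.19. The call was lost without sgCtrl 2 (adjusted p = 0.0846) and without sgCtrl 3 (adjusted p = 0.145), both by edgeR.

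DDIT3 encodes CHOP, the factor tied to cell death after prolonged stress. It had 5.77, 3.17 and 5.62 CPM in sgL1 1-3 and 5.25, 5.44 and 5.50 CPM in sgL1 4-6, against 4.92, 5.40 and 6.08 CPM in sgCtrl. The groups overlapped, sgL1 2 was the lowest library, and the log2 fold change was -0.093 (SE 0.16; adjusted p = 0.811 by edgeR). In GENCODE 29, 39.6% of its exonic bases are shared with genes on either strand, mostly MARS. Without sgL1 2 the log2 fold change was 0.0095.

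TRIB3 and ATF5 stayed short of the threshold in all 4 comparisons. TRIB3, a pseudokinase that ATF4 induces and that restrains it, averaged 53.4 ± 1.76 CPM in sgL1 1-3 and 49.6 ± 1.66 CPM in sgL1 4-6, against 49.4 ± 4.64 CPM in sgCtrl, with log2 fold changes of 0.11 in sgL1 1-3 and 0.0059 in sgL1 4-6. ATF5, a factor also controlled by upstream reading frames, averaged 34.7 ± 6.83 CPM in sgL1 1-3 and 33.4 ± 1.01 CPM in sgL1 4-6, against 36.2 ± 0.435 CPM in sgCtrl, with log2 fold changes of -0.063 in sgL1 1-3 and -0.12 in sgL1 4-6. For ATF5 all sgL1 4-6 libraries lay below sgCtrl, and sgL1 1-3 overlapped it. NUPR1, a small stress-induced chromatin protein, had 4, 12 and 1 counts in sgL1 1-3 and 2, 2 and 3 counts in sgL1 4-6, against 6, 5 and 19 counts in sgCtrl. With all 9 libraries NUPR1 did not pass the filter. It passed in some fits with 1 library left out, and in sgL1 4-6 against sgCtrl it was then called as lower without sgL1 3 and without sgCtrl 2 (edgeR adjusted p = 0.0486 and 0.0395).

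PPP1R15A, the inducible phosphatase subunit GADD34, had 157, 183 and 167 CPM in sgL1 1-3 and 145, 154 and 152 CPM in sgL1 4-6, against 167, 159.5 and 165 CPM in sgCtrl. All sgL1 4-6 libraries lay below sgCtrl, while sgL1 1-3 lay on both sides of it. The log2 fold change against sgCtrl was -0.036 (SE 0.055; adjusted p = 0.774 by edgeR) over sgL1 and -0.12 (SE 0.046; adjusted p = 0.0862 by edgeR) in sgL1 4-6. The sgL1 4-6 value passed with only the 6 libraries compared and without sgL1 2 (edgeR adjusted p = 0.0366 and 0.0464). For the same gene sgL1 1-3 stood above sgL1 4-6 by 0.17 (SE 0.046; adjusted p = 0.0248 by edgeR). PPP1R15B, the constitutive subunit, averaged 155 ± 8.37 CPM in sgL1 1-3 and 154 ± 2.19 CPM in sgL1 4-6, against 146 ± 3.71 CPM in sgCtrl. All sgL1 4-6 libraries lay above sgCtrl and sgL1 1-3 overlapped it, and PPP1R15B passed the test in none of the 4 comparisons.

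CHAC1 degrades glutathione and is raised by ATF4 with CEBPB (ENSG00000128965, chromosome 15, 40952962 to 40956519, plus strand). It had 10.1, 10.9 and 11.2 CPM in sgL1 1-3 and 7.64, 8.46 and 7.93 CPM in sgL1 4-6, against 6.00, 6.47 and 5.57 CPM in sgCtrl. The 3 sets did not overlap, and sgL1 1-3 was highest. Relative to sgCtrl this was a log2 fold change of 0.64 (SE 0.14; adjusted p = 0.00220 by edgeR), or 0.84 (SE 0.13; adjusted p = 7.81e-06 by edgeR) in sgL1 1-3. In sgL1 4-6 it was 0.41 (SE 0.14; adjusted p = 0.0420 by edgeR), a call lost with DESeq2 (adjusted p = 0.0880) and without any 1 of the 6 libraries compared (edgeR adjusted p of 0.0517 without sgCtrl 2 to 0.170 without sgCtrl 3).

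VLDLR, a receptor for triglyceride-rich lipoproteins that is known as a target of both ATF4 and hypoxia-inducible factors (ENSG00000147852, chromosome 9, 2621834 to 2660053, plus strand), had 23.4, 20.6 and 24.1 CPM in sgL1 1-3 and 26.2, 24.7 and 24.2 CPM in sgL1 4-6, against 16.5, 14.9 and 17.9 CPM in sgCtrl. All 6 sgL1 libraries lay above sgCtrl, and here sgL1 4-6 was the higher set by its mean. The log2 fold change was 0.54 (SE 0.088; adjusted p = 7.80e-05 by edgeR), and the sets differed by -0.14 (SE 0.089; adjusted p = 0.374 by edgeR).

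GDF15, a secreted cytokine of cell stress, had 9.02, 8.09 and 11.5 CPM in sgL1 1-3 and 6.39, 6.33 and 7.48 CPM in sgL1 4-6, against 5.43, 4.65 and 6.92 CPM in sgCtrl. Libraries of sgL1 1-3 lay above all others, whereas sgL1 4-6 overlapped sgCtrl. It rose in sgL1 1-3 by 0.75 (SE 0.16; adjusted p = 5.44e-04 by edgeR), and the value in sgL1 4-6 was 0.25 (SE 0.16; adjusted p = 0.398 by edgeR). Over sgL1 as a whole the log2 fold change was 0.52 (SE 0.18; adjusted p = 0.0727 by edgeR). That value passed with no filter on low counts (edgeR adjusted p = 0.00765), and without sgL1 4, sgL1 5 or sgCtrl 3 (edgeR adjusted p = 0.0275, 0.0407 and 0.0453).

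**Figure D2:**
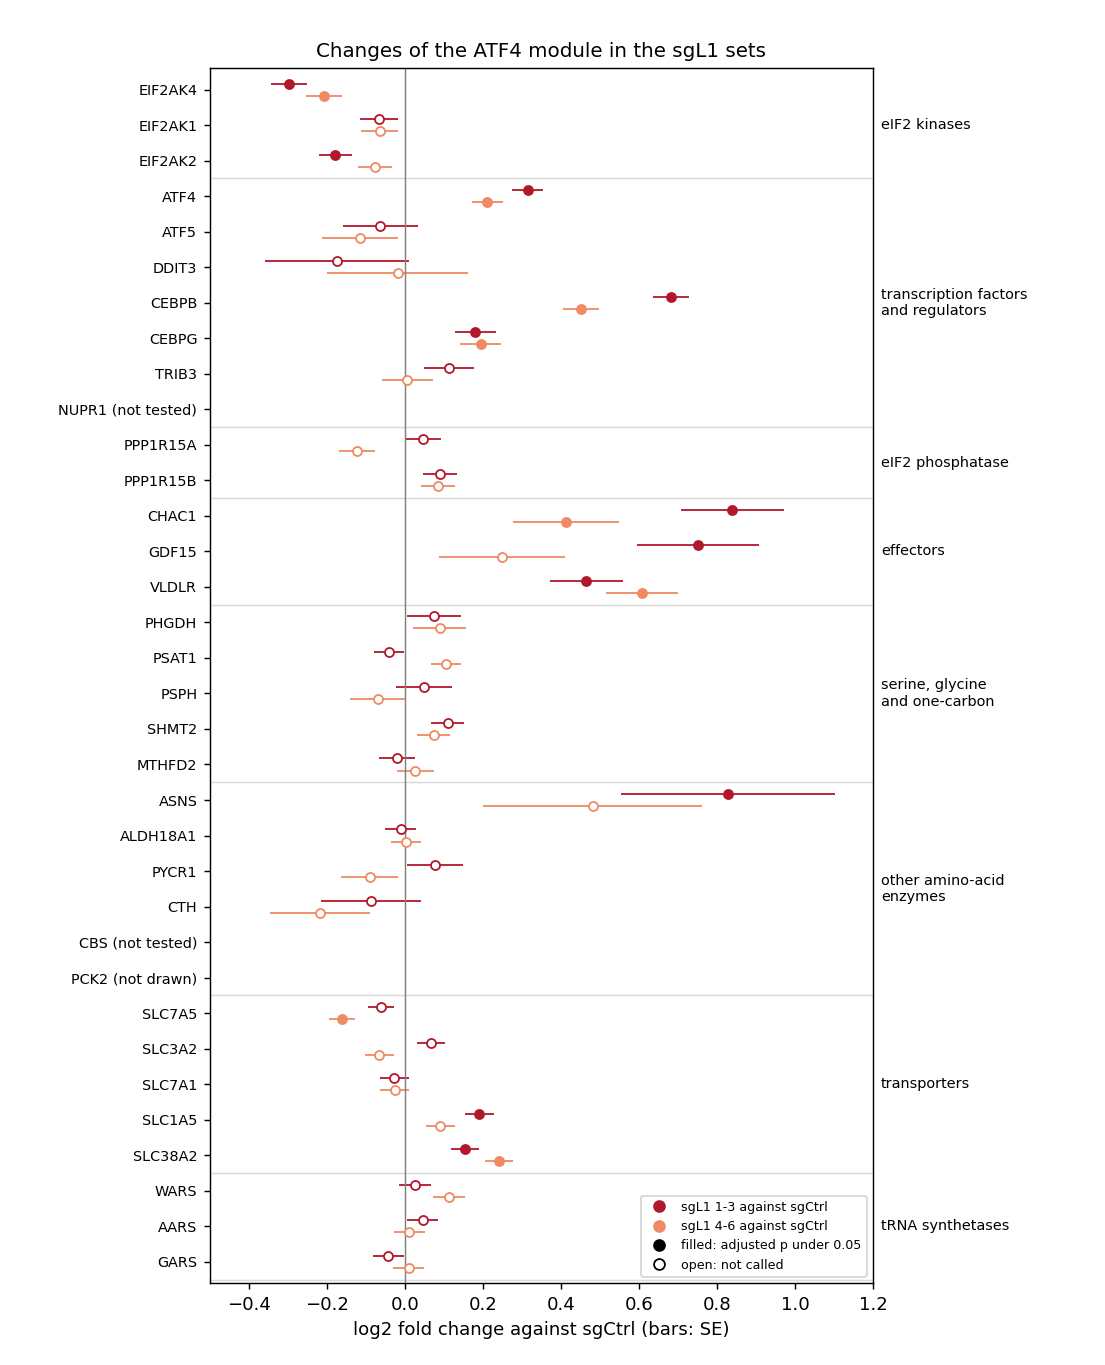
Log2 fold change against sgCtrl (horizontal axis) of the members by role, for sgL1 1-3 and sgL1 4-6, with bars for the SE and filled points where the edgeR adjusted p is under 0.05; PCK2 is not drawn because 1 sgCtrl library sets its value. Filled points lie among the regulators, effectors, transporters and kinases and at ASNS, and the serine-glycine, phosphatase and synthetase genes are open.

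The 5 genes of serine, glycine and one-carbon metabolism did not pass the test against sgCtrl, with log2 fold changes of -0.0097 to 0.092 in sgL1 and 1 gene at an unadjusted p under 0.05. DESeq2 and limma-voom called 0 of them in sgL1 as well. The share of all genes at an unadjusted p under 0.05 is not given here. PSAT1, the aminotransferase of serine synthesis, had 207, 209 and 208 CPM in sgL1 1-3 and 239, 227 and 225 CPM in sgL1 4-6, against 214, 217 and 211 CPM in sgCtrl. The sgL1 1-3 libraries were below every other library and sgL1 4-6 above every other. Its log2 fold change was 0.034 (SE 0.046; adjusted p = 0.737 by edgeR), and sgL1 1-3 stood below sgL1 4-6 by a log2 difference of -0.15 (SE 0.038; adjusted p = 0.0182 by edgeR).

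PHGDH, which takes the first step from glycolysis towards serine, averaged 46.9 ± 3.96 CPM in sgL1 1-3 and 47.4 ± 2.85 CPM in sgL1 4-6, against 44.5 ± 1.40 CPM in sgCtrl. PSPH, the phosphatase of the last step, averaged 35.9 ± 1.39 CPM in sgL1 1-3 and 33.1 ± 1.58 CPM in sgL1 4-6, against 34.7 ± 0.503 CPM in sgCtrl. The libraries of both genes overlapped between each sgL1 set and sgCtrl. SHMT2, the mitochondrial enzyme that splits serine to glycine, averaged 313 ± 22.3 CPM in sgL1 1-3 and 305 ± 14.1 CPM in sgL1 4-6, against 289.8 ± 5.48 CPM in sgCtrl. All sgL1 1-3 libraries lay above sgCtrl, and sgL1 4-6 overlapped it. In sgL1 1-3 the log2 fold change was 0.11 (SE 0.043; adjusted p = 0.0799 by edgeR), which passed without sgL1 1 and without sgL1 3 (edgeR adjusted p = 0.0304 and 0.0473). MTHFD2, which oxidises the one-carbon unit, averaged 91.4 ± 1.96 CPM in sgL1 1-3 and 94.5 ± 1.61 CPM in sgL1 4-6, against 92.7 ± 1.84 CPM in sgCtrl, with log2 fold changes of -0.02 in sgL1 1-3 and 0.027 in sgL1 4-6.

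ASNS, asparagine synthetase, was low in these cells, with 44, 48 and 33 counts in sgL1 1-3 and 36, 27 and 39 counts in sgL1 4-6, against 25, 23 and 22 counts in sgCtrl. In CPM this was 2.85, 2.99 and 2.08 in sgL1 1-3 and 2.15, 1.60 and 2.49 in sgL1 4-6, against 1.60, 1.44 and 1.41 in sgCtrl. Libraries of sgL1 1-3 lay above sgCtrl, and sgL1 5 matched the highest sgCtrl library. This amounted to a log2 fold change of 0.66 (SE 0.25; adjusted p = 0.0911 by edgeR), and 0.83 (SE 0.27; adjusted p = 0.0329 by edgeR) in sgL1 1-3, where the call was lost with DESeq2 (adjusted p = 0.0603) and without sgL1 1, sgL1 2 or any 1 of the sgCtrl libraries (edgeR adjusted p of 0.0633 without sgCtrl 1 to 0.140 without sgL1 2). In GENCODE 29, 44.6% of its exonic bases are shared on the same strand with AC079781.5, and the part of that overlap in the low counts was not tested.

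Among the other amino-acid enzymes, ALDH18A1 and PYCR1 make proline. ALDH18A1 averaged 201 ± 2.52 CPM in sgL1 1-3 and 203 ± 5.84 CPM in sgL1 4-6, against 203 ± 4.02 CPM in sgCtrl, and PYCR1 averaged 50.8 ± 6.05 CPM in sgL1 1-3 and 45.2 ± 3.68 CPM in sgL1 4-6, against 48.2 ± 1.67 CPM in sgCtrl. CTH, which makes cysteine from cystathionine, had 7.85, 8.77 and 9.22 CPM in sgL1 1-3 and 7.34, 8.34 and 7.93 CPM in sgL1 4-6, against 8.88, 9.04 and 9.54 CPM in sgCtrl, and all sgL1 4-6 libraries lay below sgCtrl. None of the 3 passed in any of the 4 comparisons with all 9 libraries. Between the sets PYCR1 had 0.17 (SE 0.073; adjusted p = 0.173 by edgeR) as log2 difference, which passed without sgL1 1 (edgeR adjusted p = 0.0416). PCK2, the mitochondrial enzyme that makes phosphoenolpyruvate, had 15, 19 and 14 counts in sgL1 1-3 and 20, 18 and 16 counts in sgL1 4-6, against 18, 116 and 16 counts in sgCtrl. Library sgCtrl 2 stood apart from the other 8. For PCK2 the log2 fold change was -1.58 (SE 0.62; adjusted p = 0.185 by edgeR), and -0.043 without sgCtrl 2. Without sgCtrl 3, which leaves sgCtrl 2 as 1 of 2 controls, it was -1.99 (edgeR adjusted p = 0.0362). CBS, which makes cystathionine, was listed at 0 in all 9 libraries, and so was CBSL, its near-identical copy, so reads shared by both may not have been counted to either.

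The transporters included the 3 most abundant members per length. SLC38A2, a sodium-coupled carrier of small neutral amino acids that cells raise when these are short (ENSG00000134294, chromosome 12, 46358189 to 46372867, minus strand), had 813, 759 and 756 CPM in sgL1 1-3 and 857, 794 and 821 CPM in sgL1 4-6, against 670.3, 709 and 712 CPM in sgCtrl. All sgL1 libraries lay above sgCtrl. Relative to sgCtrl this was a log2 fold change of 0.20 (SE 0.04; adjusted p = 0.00116 by edgeR), with 0.15 in sgL1 1-3 and 0.24 in sgL1 4-6.

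SLC1A5, the glutamine carrier ASCT2, had 451, 496 and 484 CPM in sgL1 1-3 and 429.9, 456 and 449.6 CPM in sgL1 4-6, against 414, 411 and 429 CPM in sgCtrl. Here sgL1 4 stood only just above the highest sgCtrl library. The log2 fold change was 0.14 (SE 0.042; adjusted p = 0.0302 by edgeR). This call was lost when any library other than sgL1 4 or sgL1 6 was left out, with the highest adjusted p of 0.166 without sgCtrl 2, and with limma on log2(FPKM + 1) (adjusted p = 0.0964). In sgL1 1-3 alone it was 0.19 (SE 0.037; adjusted p = 2.41e-04 by edgeR).

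SLC7A5 and SLC3A2 encode the light and heavy chains of LAT1, the exchanger that brings in leucine and other large neutral amino acids. SLC7A5 had 933, 966 and 968 CPM in sgL1 1-3 and 845, 930.1 and 898 CPM in sgL1 4-6, against 989, 996 and 1007 CPM in sgCtrl. Every sgL1 library lay below every sgCtrl library, with sgL1 4 the lowest. The log2 fold change over sgL1 was -0.11 (SE 0.039; adjusted p = 0.0736 by edgeR), and in sgL1 4-6 it fell by 0.16 (SE 0.033; adjusted p = 5.07e-04 by edgeR) on the log2 scale. Without sgL1 2 or sgL1 3 the value over sgL1 passed (edgeR adjusted p = 0.0244 and 0.0276).

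SLC3A2 had 361, 387 and 366 CPM in sgL1 1-3 and 330.1, 351 and 334 CPM in sgL1 4-6, against 361, 349 and 353 CPM in sgCtrl. The sgL1 1-3 libraries were above sgL1 4-6, and sgCtrl lay across both. Its log2 fold change over sgL1 was 0.0016 (SE 0.044; adjusted p = 0.991 by edgeR), with a sign that changed with the scaling, and sgL1 1-3 stood above sgL1 4-6 by 0.13 (SE 0.037; adjusted p = 0.0266 by edgeR). SLC7A1, the carrier of arginine and lysine, averaged 322 ± 4.88 CPM in sgL1 1-3 and 322 ± 12.97 CPM in sgL1 4-6, against 328 ± 4.35 CPM in sgCtrl, with log2 fold changes of -0.028 in sgL1 1-3 and -0.026 in sgL1 4-6 that did not pass.

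The 3 tRNA synthetases, which charge tRNA with tryptophan (WARS), alanine (AARS) and glycine (GARS), did not pass in any of the 4 comparisons with all 9 libraries. WARS averaged 170.1 ± 5.70 CPM in sgL1 1-3 and 181 ± 0.909 CPM in sgL1 4-6, against 167 ± 5.51 CPM in sgCtrl. Its sgL1 4-6 libraries all lay above sgCtrl, at a log2 fold change of 0.11 (SE 0.041; adjusted p = 0.0732 by edgeR), which passed with only the 6 libraries compared (edgeR adjusted p = 0.0482). AARS averaged 205 ± 9.11 CPM in sgL1 1-3 and 201 ± 3.37 CPM in sgL1 4-6, against 199 ± 1.28 CPM in sgCtrl. GARS averaged 216 ± 8.66 CPM in sgL1 1-3 and 224 ± 3.67 CPM in sgL1 4-6, against 223 ± 6.14 CPM in sgCtrl. In both, each sgL1 set overlapped sgCtrl.

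The values of the uncalled members were as follows. Of the 24 members that did not pass in sgL1 against sgCtrl, 19 had a mean of at least 10 CPM, with log2 fold changes of -0.13 to 0.092 and SE of at most 0.085. Pooled values near 0 can hold sets that differ, as for PSAT1, PPP1R15A and SLC3A2. Within the sets, the uncalled members of at least 10 CPM had log2 fold changes of -0.066 to 0.11 in sgL1 1-3 (18 members) and -0.12 to 0.11 in sgL1 4-6 (19 members), with SE of at most 0.096. The other 5 members uncalled over sgL1, all under 10 CPM, had a wider SE.

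Per length, in FPKM, which divides counts by gene length and library size, SLC7A5 was the most abundant member, at 199 FPKM in sgL1 1-3 and 186 FPKM in sgL1 4-6, against 208 FPKM in sgCtrl. SLC1A5 followed with 142 FPKM in sgL1 1-3 and 132 FPKM in sgL1 4-6, against 124 FPKM in sgCtrl, and SLC38A2 with 116 FPKM in sgL1 1-3 and 124 FPKM in sgL1 4-6, against 105 FPKM in sgCtrl. Among the transcription factors, CEBPB had 105 FPKM in sgL1 1-3 and 89.5 FPKM in sgL1 4-6, against 65.5 FPKM in sgCtrl, and ATF4 had 96.05 FPKM in sgL1 1-3 and 89.4 FPKM in sgL1 4-6, against 77.3 FPKM in sgCtrl. CEBPB thus stood above ATF4 in sgL1 1-3 and below it in sgCtrl, and in sgL1 4-6 their means differed by less than the spread between libraries. At the low end, ASNS had 0.587 FPKM in sgL1 1-3 and 0.462 FPKM in sgL1 4-6, against 0.330 FPKM in sgCtrl, and NUPR1 had 0.0622 FPKM in sgL1 1-3 and 0.0250 FPKM in sgL1 4-6, against 0.112 FPKM in sgCtrl.

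**Figure D3:**
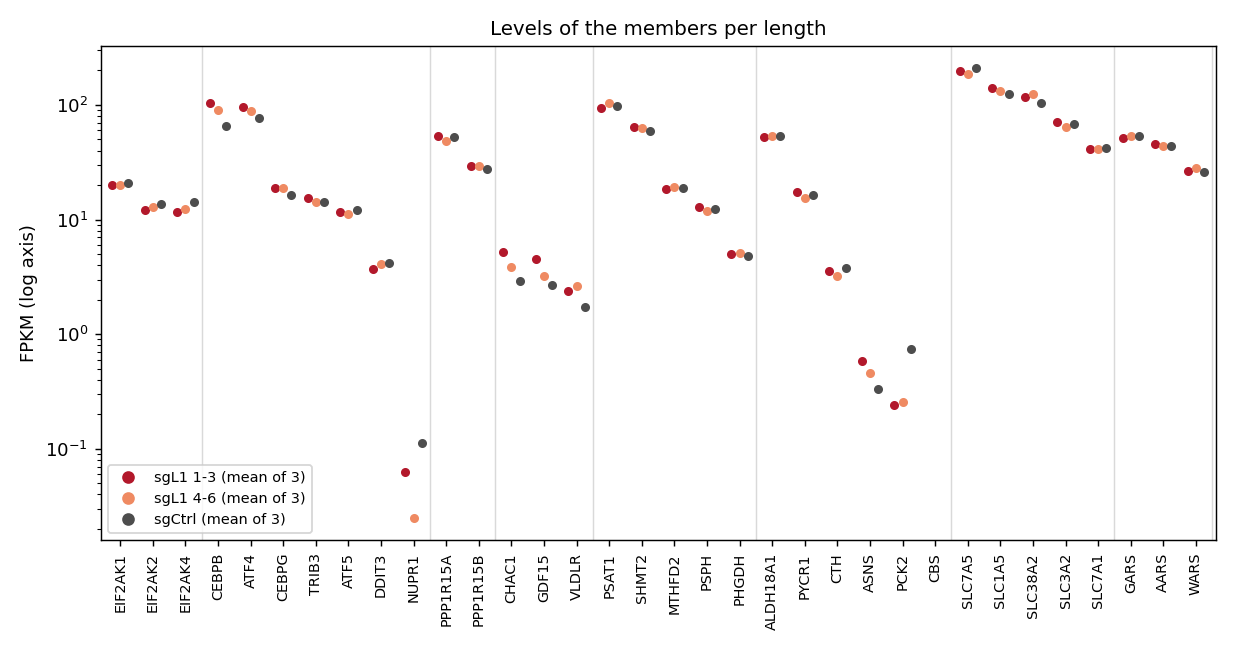
Mean deposited FPKM (vertical axis, log scale) of the members in sgL1 1-3, sgL1 4-6 and sgCtrl (3 libraries each), ordered within each role; CBS is at 0 and not drawn. SLC7A5, SLC1A5 and SLC38A2 lie highest, and ASNS, PCK2 and NUPR1 lie lowest.

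By set, 9 members rose and 2 fell in sgL1 1-3 against sgCtrl, where 15.3% of all genes were called (8.39% higher, 6.92% lower). In sgL1 4-6 against sgCtrl 6 rose and 2 fell, where 10.6% of all genes were called (5.92% higher, 4.68% lower). Both comparisons share the sgCtrl libraries. The members' medians were 0.048 in sgL1 1-3 and 0.01 in sgL1 4-6. Set against each other, sgL1 1-3 was higher for 5 members, CEBPB, CHAC1, GDF15, PPP1R15A and SLC3A2, and lower for PSAT1, where 5.69% of all genes were called (2.89% higher, 2.79% lower). CEBPB stood 0.23 (SE 0.046; adjusted p = 0.00247 by edgeR) higher in sgL1 1-3, CHAC1 0.43 (SE 0.13; adjusted p = 0.0387 by edgeR) and GDF15 0.50 (SE 0.15; adjusted p = 0.0427 by edgeR), all as log2 differences. UFL1 was also lower in sgL1 1-3 than in sgL1 4-6, as given above, and its part in these differences was not tested. These counts depended on single libraries: without sgL1 4 the edgeR fit called 1 member higher and none lower, out of 157 genes in all, against 867 with every library. All genes called were 247 without sgL1 2, 354 without sgL1 3 and 333 without sgL1 6, and 1364 without sgL1 1, where 8 members were higher and 2 lower. CEBPB alone of the 6 kept its call without each library in turn. CHAC1 lost it without sgL1 2, 3, 4, 6 or sgCtrl 1 (highest adjusted p = 0.177 without sgL1 4) and GDF15 without sgL1 3, 4, 5, 6 or sgCtrl 1 (highest 0.287 without sgL1 3). PPP1R15A and SLC3A2 lost it without sgL1 2, 3, 4 or 6 (highest 0.253 and 0.189 without sgL1 2), and PSAT1 without sgL1 2, 3 or 4 (highest 0.131 without sgL1 4), all by edgeR.

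**Figure D4:**
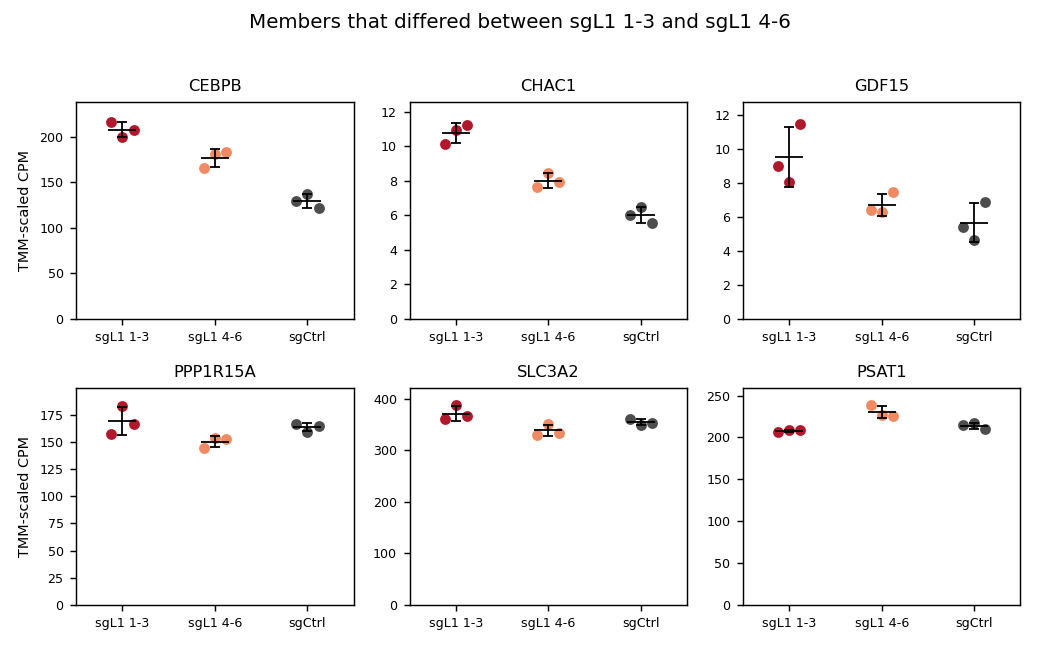
Level in TMM-scaled CPM (vertical axes, from 0) of the 6 members that differed between sgL1 1-3 and sgL1 4-6; points are single libraries and black marks the mean and SD of 3. CEBPB and CHAC1 stand in 3 separate steps, GDF15 overlaps between sgL1 4-6 and sgCtrl, PSAT1 runs the other way, and sgCtrl lies across or between the sets in PPP1R15A and SLC3A2.

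Other genes of the pathway were read from 3 further lists. Over all genes tested, edgeR called 9.49% in sgL1, 15.3% in sgL1 1-3 and 10.6% in sgL1 4-6, each against sgCtrl. Between the sets it called 5.69%. Counts in lists this short, several of them near these shares, are not read as results about the lists. These shares are at adjusted p. The share of all genes at an unadjusted p under 0.05 is not given here, so counts at that threshold have no such reference. By edgeR, of the 13 genes of eIF2, its exchange factor eIF2B and its upstream regulators, 0 passed in sgL1 against sgCtrl, with 2 at an unadjusted p under 0.05 and a median log2 fold change of -0.045. In sgL1 1-3 0 of them passed, with 5 at an unadjusted p under 0.05. In sgL1 4-6, 1 rose and 1 fell, named after their values were seen: EIF2S2, the beta subunit of eIF2, rose by 0.12 (SE 0.04; adjusted p = 0.0448 by edgeR) on the log2 scale, and GCN1, which activates GCN2, had a log2 fold change of -0.15 (SE 0.036; adjusted p = 0.00350 by edgeR). The call of EIF2S2 was lost with DESeq2 (adjusted p = 0.0581) and without sgL1 4, sgL1 5, sgCtrl 2 or sgCtrl 3 (highest edgeR adjusted p = 0.239, without sgCtrl 3). The call of GCN1 was lost without sgL1 4 (edgeR adjusted p = 0.0542) and with limma on log2(FPKM + 1) (adjusted p = 0.0657). Without sgL1 3, GCN1 also passed over sgL1 as a whole and in sgL1 1-3 (edgeR adjusted p = 0.0138 and 0.0487). Of 16 further tRNA synthetases tested, 0 passed, with 0 at an unadjusted p under 0.05 and a median of 0.028. In sgL1 against sgCtrl DESeq2 and limma-voom also called 0 genes in both lists. VARS was listed at 0 in every library. Of 17 further ATF4 targets tested of 20 listed, 4 rose, 1 fell and the median was 0.028. In sgL1 1-3 against sgCtrl, 4 of these targets rose and 1 fell (23.5% and 5.88%), and in sgL1 4-6 4 rose and 1 fell. Among the further synthetases 0 rose and 2 fell (12.5%) in sgL1 1-3, and 2 rose (12.5%) and 1 fell (6.25%) in sgL1 4-6. Those of sgL1 4-6 came to 0 rose and 0 fell without sgCtrl 1 and without sgCtrl 2, and in both sets limma on log2(FPKM + 1) called 0. In the difference between sets, 4 of these other synthetases, IARS, EPRS, TARS and RARS, named after their values were seen, were lower in sgL1 1-3 than in sgL1 4-6, by log2 differences of -0.13, -0.14, -0.13 and -0.15 (edgeR adjusted p = 0.0203, 0.0393, 0.0322 and 0.0230). This count was 0 without sgL1 2, 0 without sgL1 4, 1 without sgL1 6, 2 without sgL1 3 and 6 without sgL1 1, and 0 with limma on log2(FPKM + 1).

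The largest change among the further ATF4 targets was that of DDIT4, an inhibitor of mTORC1 that hypoxia-inducible factors also raise. It had 346, 349.9 and 399.8 CPM in sgL1 1-3 and 310.1, 314 and 324 CPM in sgL1 4-6, against 122, 115 and 129 CPM in sgCtrl. All sgL1 libraries lay above sgCtrl, and the log2 fold change was 1.48 (SE 0.08; adjusted p = 7.37e-08 by edgeR). In GENCODE 29, 41.2% of its exonic bases lie over the antisense gene DDIT4-AS1. KLHL24, which encodes a ubiquitin-ligase adaptor, rose by 0.66 (SE 0.082; adjusted p = 1.10e-06 by edgeR), and GPT2, the mitochondrial alanine aminotransferase, by 0.22 (SE 0.056; adjusted p = 0.00889 by edgeR), both on the log2 scale. HERPUD1, of endoplasmic reticulum degradation, rose by 0.18 (SE 0.051; adjusted p = 0.0267 by edgeR), a call lost without sgL1 1, sgL1 5, sgL1 6, sgCtrl 1 or sgCtrl 2 (highest adjusted p = 0.158, without sgCtrl 1). The call of GPT2 was lost without sgCtrl 1 (edgeR adjusted p = 0.102). SLC7A11, the cystine carrier, fell, with a log2 fold change of -0.32 (SE 0.055; adjusted p = 2.43e-04 by edgeR): its levels were 159, 143 and 139 CPM in sgL1 1-3 and 169, 139 and 152 CPM in sgL1 4-6, against 179, 188 and 195 CPM in sgCtrl. The list therefore held genes moving both ways.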

How the data were processed

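RNA-seq counts per gene and FPKM values for 9 libraries were used as the authors deposited them. Per the submitters' processing notes, the tools were fastp 0.20.1, STAR 2.7.7a and featureCounts 2.0.0 with build hg38 (GRCh38). Neither the annotation release nor the strand setting is given in the sources used here. The deposited FPKM values are the deposited counts times constants (largest relative deviation 6.87e-15). Rows without a symbol (627 of 59362, 0.358 to 0.41% of counts) were left out.

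Counts were tested with edgeR 4.0.16 in R 4.3.3 (filterByExpr, TMM scaling, robust quasi-likelihood F test), with Benjamini-Hochberg adjustment over all 15242 genes tested and a threshold of 0.05. One fit compared 6 sgL1 with 3 sgCtrl libraries. A second fit held sgL1 1-3, sgL1 4-6 and sgCtrl as 3 sets. Levels are TMM-scaled CPM computed from the counts. The SE of a log2 fold change is its size over the square root of F. The two-sided tests of 3 of the 4 comparisons, all but sgL1 4-6 against sgCtrl, were checked on simulated data. No pair of the 9 libraries agreed within sampling noise (chi-square per gene 2.3 to 14.6 over genes with at least 20 counts). By this measure sgL1 1 was nearer to sgL1 5 and sgL1 6 (3.11 and 3.13) than to sgL1 2 and sgL1 3 (3.83 and 3.89). It was farther from sgL1 4 (5.1). The sets follow the library numbers and are not 2 cleanly separate groups. Overlaps were taken from GENCODE 29 and promoters from RefSeq (GRCh38.p14). MTHFD2 (33.2%), PYCR1 (29.7%) and ATF5 (23.7%) also shared exonic bases with genes on either strand.

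Members and lists were chosen with earlier results of these data known. Every library is given for members with adjusted p under 0.05 in any comparison and for ATF4, DDIT3, ASNS, PPP1R15A and PSAT1. From the other lists, genes that passed in sgL1 against sgCtrl are named. Alternatives were other scalings, filters and thresholds, DESeq2 1.42.0, limma 3.58.1 on counts (voom) and on log2 FPKM, a block on the library number, and leaving out each library.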

Additional observations from a re-analysis of the deposited data

Results flagged for a closer look

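Library sgL1 2 stood apart from the other 5 sgL1 libraries for EIF2AK4, at 130.4 CPM, and for DDIT3, at 3.17 CPM, by Dixon's test for a group of 6 values. Chance gives such a mark in about 5% of groups. The test was run on every member except those with the lowest counts, so some marks would come by chance alone.

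For 6 members the change against sgCtrl differed between sgL1 1-3 and sgL1 4-6 by the edgeR test of that difference. The log2 difference, sgL1 1-3 minus sgL1 4-6, was 0.13 for SLC3A2, -0.15 for PSAT1, 0.23 for CEBPB, 0.17 for PPP1R15A, 0.43 for CHAC1 and 0.50 for GDF15.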

How the results depend on the processing

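In sgL1 against sgCtrl, the calls of ATF4, CEBPB, CHAC1, VLDLR, SLC38A2 and EIF2AK4 held in every alternative run, including each library left out. Leaving out 1 library gave 5 to 8 members that rose, 1 to 2 that fell and 901 to 1758 genes called in all (901 without sgCtrl 2, 948 without sgCtrl 1), against 7, 1 and 1447. An adjusted p under 0.01 left 856 genes. Same-numbered libraries of sgL1 1-3 and sgCtrl showed no shared deviation (correlations -0.0035, -0.1 and -0.022, against -0.065 to 0.085 for differently numbered pairs). These correlations cannot tell whether the samples were paired by design. With the replicate block over sgL1 1-3 and sgCtrl 1-3, 8 members rose and 2 fell, of 1851 genes called, and PPP1R15A and PSAT1 had log2 fold changes of 0.043 and -0.043, against 0.046 and -0.042 in sgL1 1-3 against sgCtrl without the block. These signs are opposite to those over all 6 sgL1 libraries, and the blocked fit holds no sgL1 4-6 library.

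In sgL1 1-3 against sgCtrl, leaving out 1 library gave 7 to 9 members that rose, 2 that fell and 1608 to 2472 genes. In sgL1 4-6 against sgCtrl it gave 4 to 6 that rose, 2 to 3 that fell and 1202 to 1687 genes, and log2(FPKM + 1) gave 1 that fell and 1076 genes. For sgL1 1-3 against sgL1 4-6, leaving out 1 library gave 1 to 8 members higher, 0 to 2 lower and 157 to 1364 genes (157 without sgL1 4, 1364 without sgL1 1). DESeq2 called 3 members higher there and gave no adjusted p to CHAC1 and GDF15 (log2 differences 0.43 and 0.50), and limma on log2(FPKM + 1) called 0 higher, 0 lower and 12 genes, against 5, 1 and 867. The cause was not tested.

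Small values changed sign. SLC3A2 in sgL1 against sgCtrl was -0.00062 with RLE, -0.0044 with library size, -0.00062 with DESeq2, -0.0018 with no filter, -0.00197 with log2(FPKM + 1), -0.00197 with that at a mean FPKM of at least 1, -0.0047 with upper-quartile scaling, -0.00056 with limma-voom and -0.00202 with log2(FPKM + 0.1), and -0.028 to 0.019 with 1 library left out. DDIT3 with 1 library left out ranged over -0.17 to 0.0095 in sgL1 against sgCtrl, -0.32 to 0.054 in sgL1 1-3, -0.092 to 0.065 in sgL1 4-6 and -0.30 to 0.074 between the sets. On the same terms PPP1R15A ranged over -0.0203 to 0.093 in sgL1 1-3, PCK2 over -1.94 to 0.011 in sgL1 4-6 (0.011 without sgCtrl 2), and CEBPG over -0.039 to 0.017 between the sets. Members under 10 CPM are limited by depth.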
